A study of Homo sapiens with 30 samples.

Results

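The 9 genes described here are the drug efflux pumps ABCC1, ABCC2, ABCC3, ABCC4, ABCC5, ABCC10, ABCG2 and ABCB1 and the major vault protein gene MVP. They were taken by symbol from a table of 20114 genes, which held all 9. Messenger RNA of SUM190, an established line of inflammatory breast cancer, was read in 30 libraries that form 15 groups of 2. Doxorubicin-resistant cells (labelled SUM190_DR, written DR here) were kept in DMSO or given 350 nM or 1 µM doxorubicin. Paclitaxel-resistant cells (SUM190_PR, written PR) were in DMSO or were given 6.5 or 10 nM paclitaxel, 15 µM ruxolitinib, or ruxolitinib together with 6.5 nM paclitaxel. The parental line was in DMSO or was given 2.5 or 10 nM paclitaxel, 65 nM or 1 µM doxorubicin, 15 µM ruxolitinib, or ruxolitinib together with 2.5 nM paclitaxel. In both combinations the label puts ruxolitinib at 15 nM, not 15 µM, and this difference in the labels cannot be resolved here. All groups were exposed for 72 h, starting 24 h after seeding. Whether a resistant line is 1 clone, and whether the 2 replicates of a group are separate cultures, is not stated in the labels, so every p-value below reflects the scatter between libraries, which may be technical.

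ABC transporters use ATP to move molecules across membranes, and a subset of them pumps chemotherapy drugs or their conjugates out of cells. Doxorubicin, an anthracycline, and paclitaxel, a taxane, are both carried by ABCB1 (P-glycoprotein), whereas ABCC1 carries anthracyclines and glutathione conjugates, and ABCC10 carries taxanes. Vaults are large hollow ribonucleoprotein particles of the cytoplasm whose shell is built from MVP, a protein first noted in drug-resistant cells as lung resistance-related protein. Ruxolitinib inhibits the kinases JAK1 and JAK2, which act through STAT transcription factors.

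The libraries held 18443749 to 32669995 reads in genes. CPM here means reads scaled to a common library size, and a gene with 0 reads could still be at up to 3 reads, which is 0.0947 to 0.163 CPM depending on the library, for counting error only. Of the 9 genes, 8 passed the filter for testing (at least 1 CPM in at least 2 libraries). ABCB1 did not, and is given as reads. The 7 markers of luminal epithelium and of the ERBB2 amplicon summed to 4411 to 8522 CPM per library. The 11 markers of stromal, endothelial and immune cells that were read summed to 14.2 to 22.3 CPM in DR libraries, 10.3 to 14.5 CPM in PR libraries and 9.71 to 23.1 CPM in parental libraries, and COL1A2, COL3A1 and CD3E had a median of 0. PECAM1 was not analysed here.

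Start-site windows from RefSeq (GRCh38.p14, from 250 bases before to 50 bases after an annotated start) were found for 7 of the 9 genes, as 15 windows in all. The expression files use GRCh37, so these coordinates belong to the RefSeq table only. Shown here are windows of the 4 genes whose levels moved most clearly with ruxolitinib (MVP, ABCC2, ABCC4) or with doxorubicin (ABCC5), read 5′ to 3′ along the gene's strand. They lie at chr16:29820144-29820443 (plus strand) for MVP, where the annotation has 3 windows and this is the most upstream, at chr10:99782390-99782689 (plus) for ABCC2, at chr13:95301402-95301701 (minus) for ABCC4 and at chr3:184017835-184018134 (minus) for ABCC5. Capitals mark the letters TTCNNNGAA, the spacing that STAT factors bind, in ABCC5, and TGACNNNGC, the core of the antioxidant response element, in ABCC4, where it was read on the opposite strand.
MVP: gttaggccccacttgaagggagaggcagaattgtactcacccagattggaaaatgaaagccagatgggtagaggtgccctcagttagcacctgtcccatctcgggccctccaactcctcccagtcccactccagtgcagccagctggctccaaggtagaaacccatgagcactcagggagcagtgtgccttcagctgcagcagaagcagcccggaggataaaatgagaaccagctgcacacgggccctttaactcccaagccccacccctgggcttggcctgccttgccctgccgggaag
ABCC2: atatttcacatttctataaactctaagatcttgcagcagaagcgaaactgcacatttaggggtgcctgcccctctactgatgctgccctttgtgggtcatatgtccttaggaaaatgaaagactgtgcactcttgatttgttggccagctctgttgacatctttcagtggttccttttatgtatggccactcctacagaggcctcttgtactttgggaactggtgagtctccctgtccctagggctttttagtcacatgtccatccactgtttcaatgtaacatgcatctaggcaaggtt
ABCC4: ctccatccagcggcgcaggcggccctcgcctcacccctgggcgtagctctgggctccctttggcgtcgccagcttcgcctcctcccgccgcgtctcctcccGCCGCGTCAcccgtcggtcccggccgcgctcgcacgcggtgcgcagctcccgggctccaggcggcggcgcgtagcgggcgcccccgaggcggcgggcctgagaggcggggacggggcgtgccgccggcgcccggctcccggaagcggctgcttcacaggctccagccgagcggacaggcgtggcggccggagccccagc
ABCC5: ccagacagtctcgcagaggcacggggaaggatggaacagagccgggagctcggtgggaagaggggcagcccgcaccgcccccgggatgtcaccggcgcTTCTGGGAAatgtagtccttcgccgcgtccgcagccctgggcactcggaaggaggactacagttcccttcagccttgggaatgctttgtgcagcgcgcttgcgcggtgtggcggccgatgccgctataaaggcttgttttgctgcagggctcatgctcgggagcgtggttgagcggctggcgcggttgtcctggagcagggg
Both strands were searched. TTCNNNGAA stood at position -152 from the start in ABCC5, and in none of the 3 MVP windows nor in the ABCC2 or ABCC4 window. It was found in 7.657% of all 35116 windows of this length. TGACNNNGC stood at position -149 in ABCC4 and was found in 13.35% of all windows. It stood also at position -143 in an ABCC10 window and at position 1 in an ABCG2 window. Of the 5 ABCG2 windows 1 held TTCNNNGAA as well. The AP-1 letters TGANTCA were in none of the 15 windows except 1 of the 2 for ABCB1, and in 7.709% of all windows. A match describes the letters only.

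**Figure D1:**
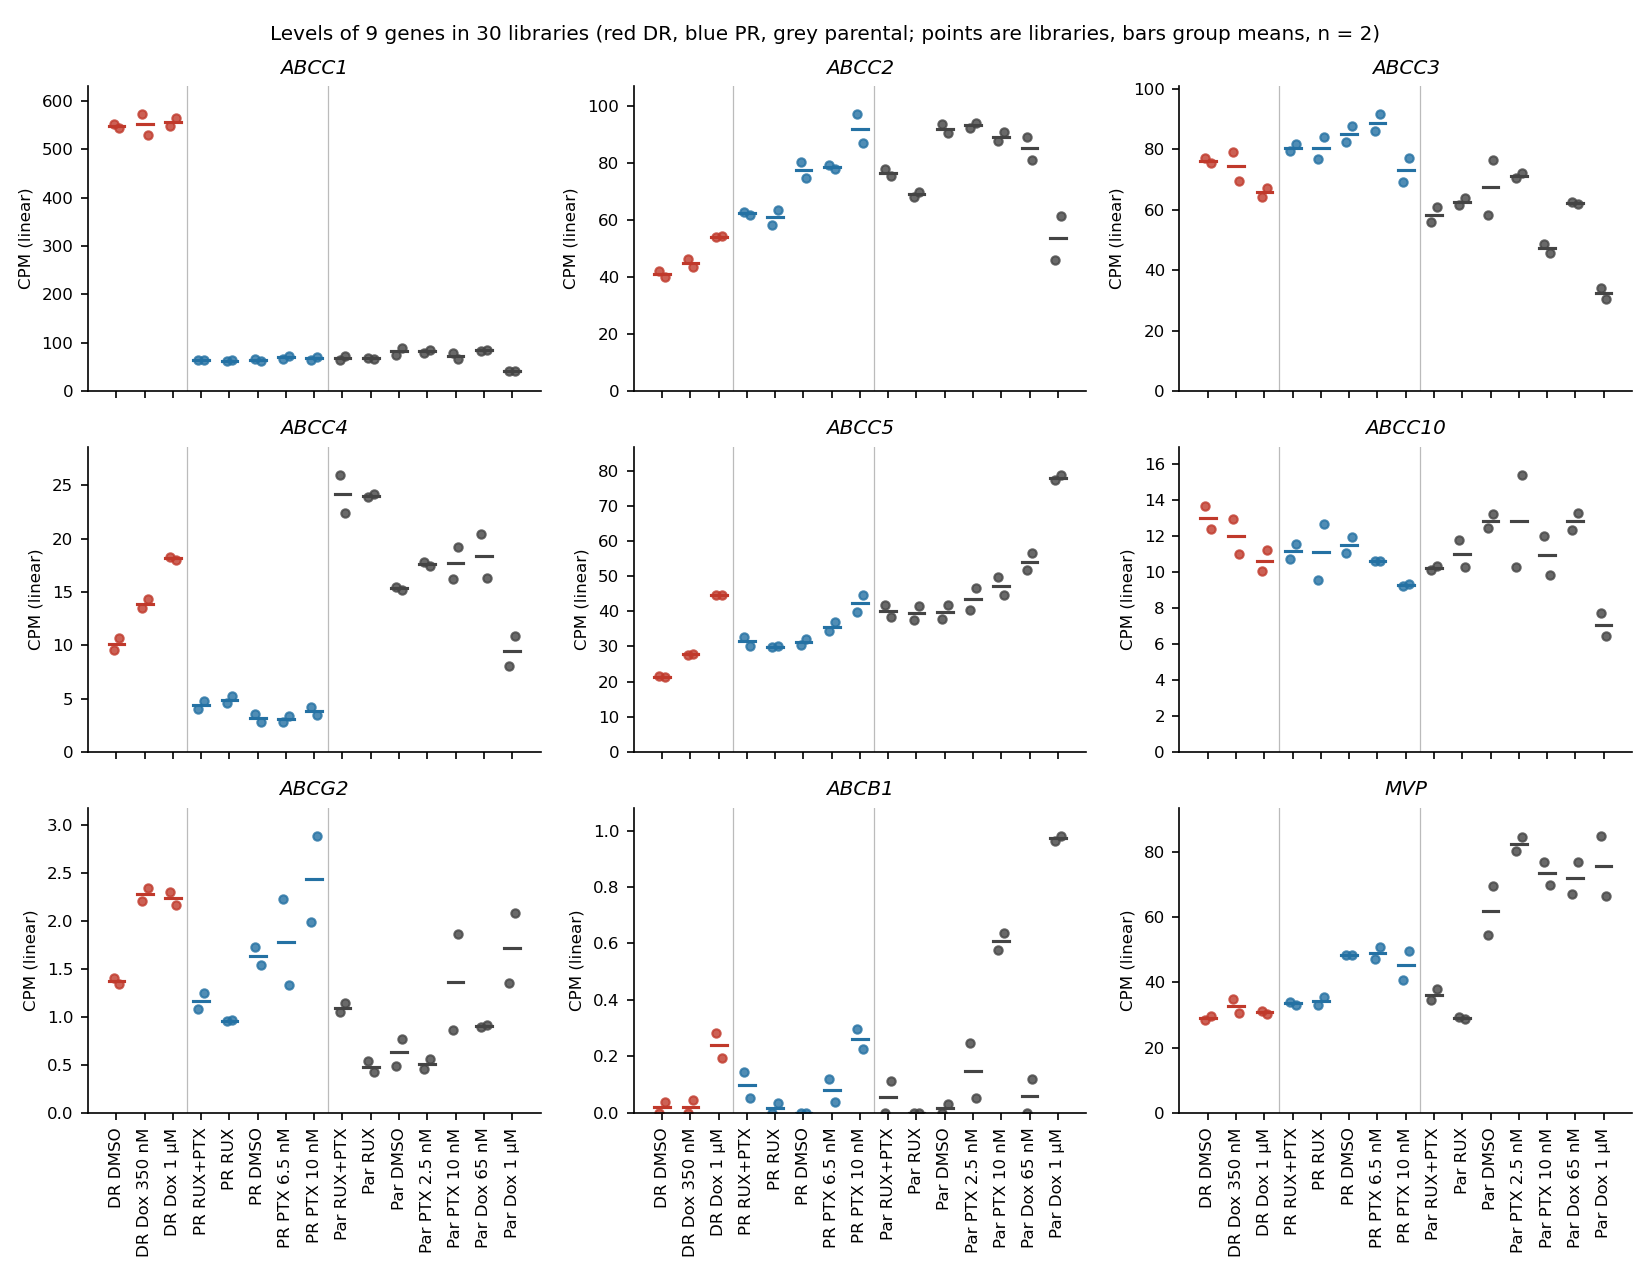
CPM of each of the 9 genes (vertical axes, linear, from 0) in the 15 groups (horizontal axis, DR in red, PR in blue, parental in grey), with a point for each library and a bar for the mean of 2. ABCC1 stood at 531 to 574 CPM in all 6 DR libraries and at 40.3 to 89.9 CPM in the other 24.

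Per kilobase of transcript, the scale on which genes can be set side by side, ABCC1 led in DR cells in DMSO at 83.1 CPM per kb. ABCC3 (13.3), MVP (9.93) and ABCC2 (7.08) followed. In PR cells in DMSO, MVP (16.5), ABCC3 (14.9) and ABCC2 (13.4) led and ABCC4 was at 0.544. In parental cells in DMSO, MVP was highest (21.2 CPM per kb), followed by ABCC2 (15.9), ABCC1 (12.4) and ABCC3 (11.8). There ABCC5 (6.72), ABCC4 (2.62) and ABCC10 (2.52) were lower, ABCG2 was at 0.141 and ABCB1 at 0.00337. When the 15 groups were ordered by CPM, neighbours in the order were apart (no overlap of their libraries) in 7 of 14 steps for ABCC5, in 5 for ABCC2, ABCC3 and ABCC4, in 4 for ABCC1 and ABCG2, and in 3 for MVP and ABCC10. All other neighbouring groups did not differ beyond their spread. Over all groups the means spanned 3.73 on the log2 scale for ABCC1, 2.62 for ABCC4, 1.82 for ABCC5, 1.47 for MVP, 1.43 for ABCC3, 1.20 for ABCG2, 1.16 for ABCC2 and 0.80 for ABCC10.

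The first comparison asked how the pumps differ in DR cells at rest. Of 8 genes tested, ABCC1 and ABCG2 were higher and ABCC2, ABCC4, ABCC5 and MVP lower in DR than in parental cells in DMSO, while 27.5% of all 12743 genes tested were called (limma, Benjamini-Hochberg adjusted p under 0.05 over all genes). The median log2 difference of the 8 was -0.27, beside -0.01 over all genes. Log2 differences here are differences of log2(CPM + 1), which are smaller than the log2 ratio of CPM for genes of low level. In bulk RNA, fewer cells that hold a transcript and less of it per cell cannot be told apart. Comparisons that name the same DMSO group share its 2 libraries.

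ABCC1, the anthracycline exporter, had 553 and 543 CPM in DR cells in DMSO, against 74.0 and 89.9 CPM in parental cells in DMSO. The DR libraries lay far above and the groups did not overlap, at 6.69 times the parental mean (log2 difference 2.73 ± 0.09 SE, adjusted p = 2.79e-16). This was the 6th most positive difference of the 12743 genes. ABCC1 did not move further with drug: DR cells had 574 and 531 CPM at 350 nM doxorubicin and 549 and 565 CPM at 1 µM, overlapping the DMSO libraries, with log2 differences of 0.01 and 0.02 from DMSO. ABCC1 had 65.6 and 62.0 CPM in PR cells in DMSO, below both parental DMSO libraries (-0.35 ± 0.09, adjusted p = 0.00572). That PR difference lost its call without parental DMSO replicate 2 (-0.21, adjusted p = 0.144) or PR DMSO replicate 2 (-0.31, adjusted p = 0.0625).

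The genes beside ABCC1 on chromosome 16, in the order of the GRCh38.p14 annotation, were read in the same comparison. All 6 tested neighbours, 3 on each side, were higher in DR cells in DMSO than in parental cells in DMSO. Of all genes tested, 27.5% were called in this comparison. FOPNL, a centrosomal protein gene, had 716 and 713 CPM in DR cells, against 100.3 and 87.2 CPM in parental cells (2.92 ± 0.11, adjusted p = 6.87e-16). NDE1, which acts in mitosis and neuronal migration, had 314 and 298 CPM in DR cells, against 37.0 and 45.5 CPM (2.87 ± 0.10). KIAA0430 followed at 1.80 ± 0.07. The neighbours on the other side, ABCC6 (0.99 ± 0.11), NOMO3 (1.85 ± 0.16) and NPIPA8 (1.701 ± 0.14), have near-identical copies or pseudogenes, so their counts are uncertain. ABCC6 had 1.104 and 1.308 CPM in DR cells, against 0.162 and 0.0645 CPM in parental cells. At so low a level log2(CPM + 1) gives a smaller difference than the log2 ratio of CPM. The 0.99 of ABCC6 therefore cannot be ranked against the other neighbours. In PR cells 0 of the 6 were higher than in parental cells and NPIPA8 was lower (-0.39 ± 0.14, adjusted p = 0.0304). MVP is on chromosome 16 as well, and 0 of its 6 tested neighbours (KIF22, MAZ, PAGR1, CDIPT, SEZ6L2 and ASPHD1) were called in DR cells, at log2 differences of -0.29 to -0.03. In PR cells PAGR1 (-0.33), SEZ6L2 (-0.47) and ASPHD1 (-0.72) were lower.

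**Figure D2:**
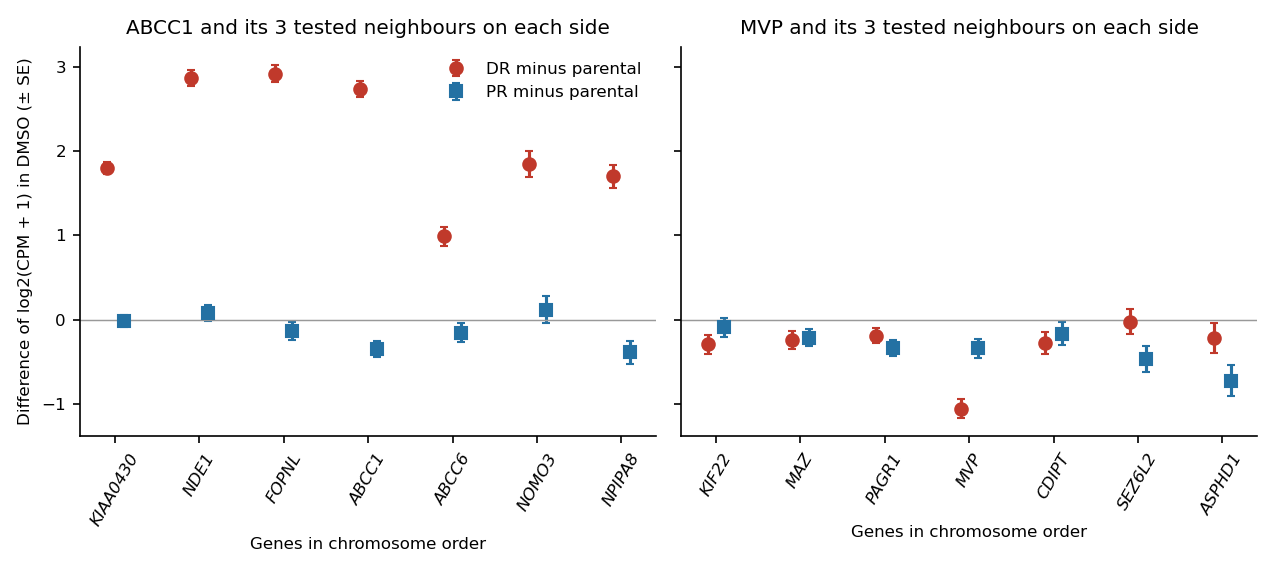
Difference of log2(CPM + 1) from parental cells in DMSO (vertical axis, with SE) for ABCC1 (left) and MVP (right) and the 3 tested genes on each side in chromosome order (horizontal axis), in DR cells (red circles) and PR cells (blue squares). The 7 DR values around ABCC1 run from 0.99 to 2.92 and the PR values from -0.39 to 0.12. The 0.99 is that of ABCC6, whose low CPM makes differences of log2(CPM + 1) smaller than the log2 ratio.

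By the likeness of their 15 group means (Pearson r of log2 means, 10142 genes with a mean of at least 5 CPM compared, for members whose means spanned at least 1 on that scale), the genes closest to ABCC1 were NOMO2 (0.987), NDUFAB1 (0.981) and NDE1 (0.975). Those closest to MVP were WIPF2 (0.947), the protease inhibitor gene SERPINA3 (0.943) and the collagen chaperone gene SERPINH1 (0.943). ABCC4 was most like HAL (0.970), TMPRSS11E (0.954) and PELO (0.948), ABCC3 most like ATP10A (0.973), NLRP2 (0.972) and BDH1 (0.970), and ABCC5 most like KIFC3 (0.953), TRAFD1 (0.951) and MAX (0.937). For ABCC2 the list is MIEF1 (0.923), ANGPTL4 (0.914) and PUS1 (0.900), and for ABCG2 it is ZNF28 (0.899), LRP11 (0.886) and HAUS3 (0.866). These r values describe 15 points that share lines and drugs.

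ABCG2 is a half-size transporter that exports mitoxantrone and topotecan. It stayed low in every library, at 0.428 to 2.89 CPM. DR cells in DMSO had 1.41 and 1.35 CPM and PR cells in DMSO had 1.73 and 1.54 CPM, against 0.486 and 0.774 CPM in parental cells in DMSO. Both resistant lines lay above the parental libraries (0.55 ± 0.17, adjusted p = 0.0199 in DR, and 0.70 ± 0.17, adjusted p = 0.00322 in PR). The DR call was lost without parental DMSO replicate 1 (adjusted p = 0.150), DR DMSO replicate 1 (0.0972) or DR DMSO replicate 2 (0.0769).

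Of the organic anion pumps, ABCC2, which sends glutathione and glucuronide conjugates across the apical membrane, had 42.1 and 40.1 CPM in DR cells, against 93.7 and 90.6 CPM in parental cells, both in DMSO. They were the lowest of all 30 libraries, and lay at 0.446 times the parental mean (-1.14 ± 0.09, adjusted p = 1.86e-09). ABCC3, a basolateral exporter of glucuronides and bile salts, had 77.0 and 75.5 CPM in DR cells, against 58.4 and 76.6 CPM in parental cells, and the groups overlapped (0.19 ± 0.10, adjusted p = 0.178). Without parental DMSO replicate 2 the ABCC3 difference was called (0.38, adjusted p = 0.00637), and it was also called after correction for GC content and length (0.21, adjusted p = 0.0026).

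ABCC4 and ABCC5 carry cyclic nucleotides and nucleotide analogues. ABCC4 had 9.60 and 10.7 CPM in DR cells, against 15.5 and 15.2 CPM in parental cells in DMSO (-0.56 ± 0.13, adjusted p = 0.00266). ABCC5 had 21.5 and 21.3 CPM in DR cells, against 37.7 and 41.8 CPM in parental cells (-0.86 ± 0.09, adjusted p = 5.59e-08). For both genes the DR libraries lay below the parental ones without overlap. ABCC10, the taxane pump, had 13.7 and 12.4 CPM in DR cells and 12.4 and 13.2 CPM in parental cells, which overlap (0.02 ± 0.14, adjusted p = 0.948).

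MVP had 28.5 and 29.6 CPM in DR cells in DMSO, against 54.6 and 69.4 CPM in parental cells in DMSO. The DR libraries were below the parental ones, at 0.469 times their mean (-1.06 ± 0.12, adjusted p = 1.73e-07). The parental DMSO libraries differed from each other with transcript GC content (Spearman rho 0.80 across genes, which are not independent), and MVP has a transcript of 61.2% GC. In the other groups this rho ran from -0.731 (parental, 1 µM doxorubicin) to 0.683 (parental, ruxolitinib with paclitaxel), with DR DMSO at -0.265. After correction of each library for GC content and length the MVP difference was -1.02. The vault partners moved in opposite directions: TEP1, which binds the vault RNA, was lower in DR cells (-0.44 ± 0.10, adjusted p = 0.00165) and PARP4, the vault poly(ADP-ribose) polymerase, was higher (0.39 ± 0.08, adjusted p = 0.000814).

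Genes that work beside the pumps were read from lists chosen with earlier results of these data known. In DR against parental cells in DMSO 27.5% of all genes were called. The list counts given here lie near or below that share, except that for regulators and scaffolds, which lies above it. Of 14 tested genes of glutathione synthesis and conjugation, 2 rose and 0 fell in DR cells in DMSO, with a median of 0.14. GCLC, the catalytic subunit of the enzyme that limits glutathione synthesis, had 450.4 and 435 CPM in DR cells, against 327 and 286 CPM in parental cells (0.53 ± 0.10, adjusted p = 0.000160). Of 28 other ABC transporters tested, 5 rose and 3 fell (median -0.02), led by the lipid transporter ABCA2 (0.67), by ABCC11 (0.59) and by the lysosomal cobalamin transporter ABCD4 (-0.55). Of 7 drug uptake carriers, 0 rose and 2 fell (median -0.24), among them the prostaglandin carrier SLCO2A1 (-0.48). Of 14 regulators and scaffolds, 1 rose and 4 fell (median -0.10), including the hypoxia factor HIF1A (-1.21) and the membrane-cytoskeleton linker MSN (-0.40).

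In PR cells in DMSO, ABCC3 and ABCG2 were higher and ABCC1, ABCC2, ABCC4, ABCC5 and MVP lower than in parental cells in DMSO, which is 7 of 8 genes, while 32.6% of all genes were called. ABCC4 gave the widest gap. It had 3.54 and 2.83 CPM in PR cells, against 15.5 and 15.2 CPM in parental cells, and the PR libraries lay at 0.207 times the parental mean (-1.97 ± 0.13, adjusted p = 4.36e-11). This was the 39th most negative difference of 12743 genes, and it was called under every alternative tried, at -2.27 to -1.85.

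ABCG2, given above, was at 2.59 times the parental mean in PR cells (0.70 on the log2 scale) and was called under every alternative tried. ABCC3 had 82.5 and 87.9 CPM in PR cells, against 58.4 and 76.6 CPM in parental cells (0.34 ± 0.10, adjusted p = 0.00933). ABCC5 had 30.3 and 32.0 CPM in PR cells, against 37.7 and 41.8 CPM (-0.34 ± 0.09, adjusted p = 0.00405). MVP had 48.4 and 48.3 CPM in PR cells, against 54.6 and 69.4 CPM (-0.34 ± 0.12, adjusted p = 0.0252). For ABCC3, ABCC5 and MVP the PR and parental libraries did not overlap, but each call was lost when a library was left out: ABCC3 without parental DMSO replicate 1 (adjusted p = 0.254) or PR DMSO replicate 2 (0.0896), ABCC5 without parental DMSO replicate 2 (0.0619) or PR DMSO replicate 1 (0.0527), and MVP without parental DMSO replicate 2 (0.359), PR DMSO replicate 1 (0.0996) or PR DMSO replicate 2 (0.1001). ABCC2, at 80.3 and 74.8 CPM in PR cells against 93.7 and 90.6 CPM in parental cells (-0.25 ± 0.09, adjusted p = 0.0483), lost its call without any 1 of the 4 libraries (adjusted p = 0.0777 to 0.255), without the filter on low values (0.0687) and when the fit held only the PR and parental lines (0.0701). Leaving out 1 library left 3 to 5 genes called in place of 7, with 3 called without parental DMSO replicate 2 or PR DMSO replicate 2 and 4 without PR DMSO replicate 1. ABCC10 had 11.05 and 11.9 CPM in PR cells, against 12.4 and 13.2 CPM (-0.15 ± 0.14, adjusted p = 0.470): the PR libraries lay below, but by less than the test required.

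The list counts for PR against parental cells in DMSO are read beside the 32.6% of all genes called. Those for regulators and scaffolds, for uptake carriers and for glutathione genes lie above that share, and that for the other ABC transporters is near it. Among the lists, 3 of 14 glutathione genes rose and 3 fell in PR cells in DMSO relative to parental cells (median 0.02), with GCLC at -0.47 and the cystine importer SLC7A11 at -0.73. Of the other ABC transporters, 4 rose and 4 fell (median 0.01). ABCC11, an exporter of cyclic nucleotides and lipophilic anions, had 129 and 129 CPM in PR cells, against 41.4 and 45.6 CPM in parental cells (1.55 ± 0.08, adjusted p = 1.16e-12), and ABCA5 had 21.7 and 22.5 CPM in PR cells, against 80.9 and 61.9 CPM (-1.64 ± 0.13). Of the regulators and scaffolds 2 rose and 9 fell (median -0.26), among them the PDZ scaffold SLC9A3R1 (-0.59). Of the uptake carriers 1 rose and 3 fell (median -0.31), with the nucleoside carrier SLC29A1 at -0.53.

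Set against PR cells in DMSO, DR cells in DMSO had higher ABCC1 (3.08 ± 0.09, adjusted p = 2.07e-17) and ABCC4 (1.41 ± 0.13, adjusted p = 1.24e-08) and lower ABCC2 (-0.90 ± 0.09), ABCC5 (-0.52 ± 0.09) and MVP (-0.72 ± 0.12). That is 5 of 8 genes, while 34% of all genes were called. All 5 kept their calls in each alternative. The ABCC4 values were 9.60 and 10.7 CPM in DR cells and 3.54 and 2.83 CPM in PR cells, without overlap.

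**Figure D3:**
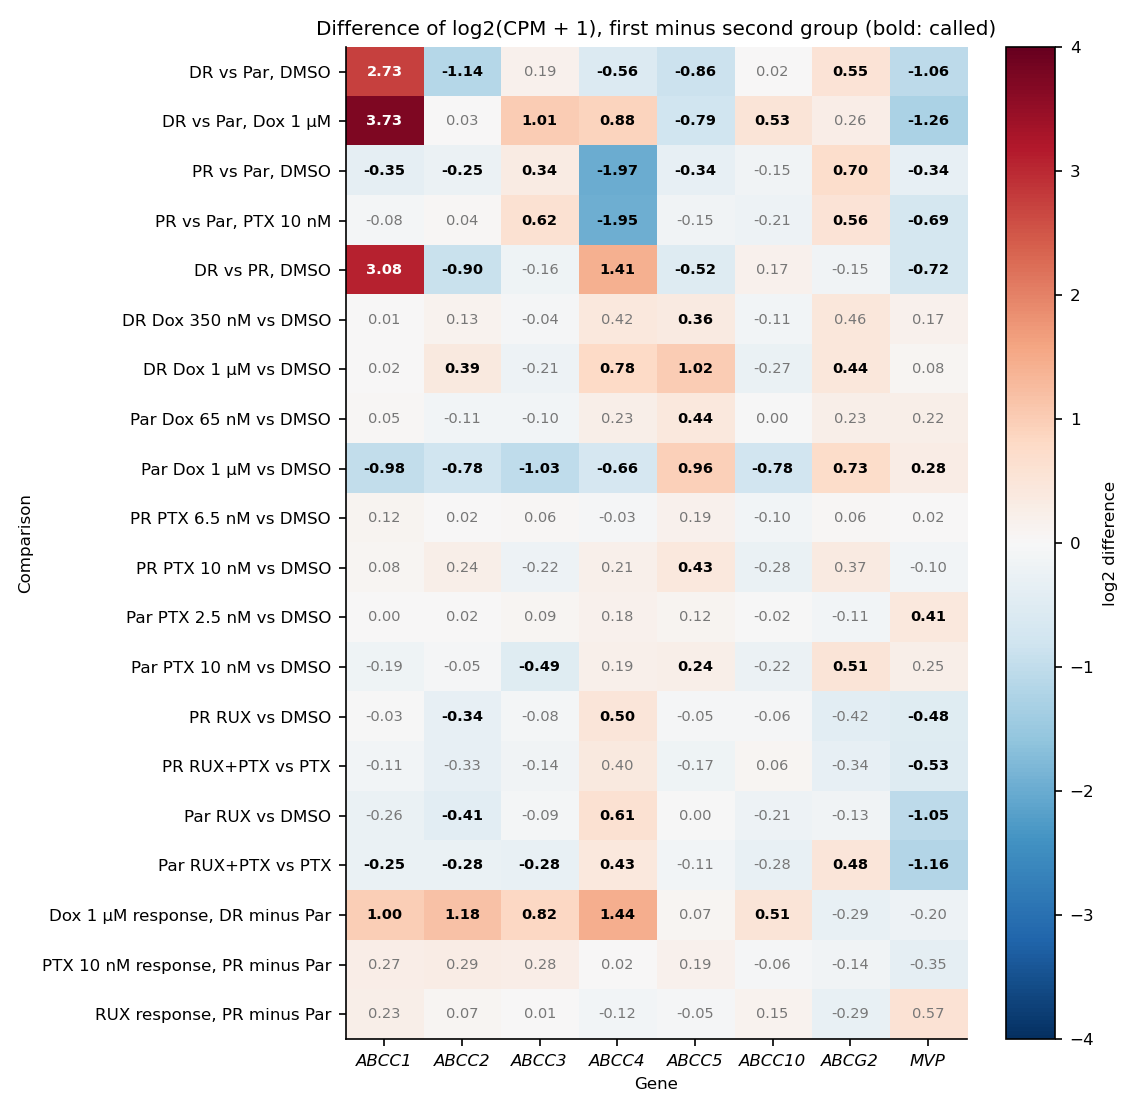
Difference of log2(CPM + 1), first group minus second (colour and printed value), for the 8 tested genes (horizontal axis) in the 20 comparisons (vertical axis), with called values in bold. ABCC1 stands out in the comparisons of DR cells with other lines (2.73, 3.08 and 3.73), and MVP is negative and called in all 4 comparisons with ruxolitinib.

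Doxorubicin at 1 µM went with higher levels of 4 of the 8 genes in DR cells and with changes of all 8 in parental cells. In DR cells 1 of 8 was called at 350 nM (ABCC5), with 3.81% of all genes, and 4 of 8 were called at 1 µM (ABCC2, ABCC4, ABCC5 and ABCG2, all higher), with 39.1% of all genes. In parental cells 1 of 8 was called at 65 nM (ABCC5 again), with 11.2% of all genes. At 1 µM all 8 were called in parental cells, 3 higher and 5 lower, while 75.8% of all genes were called, so this count is read beside a high background.

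ABCC5 increased with dose in both lines. In DR cells it had 21.5 and 21.3 CPM in DMSO, 27.6 and 27.9 CPM at 350 nM and 44.5 and 44.6 CPM at 1 µM. In parental cells it had 37.7 and 41.8 CPM in DMSO, 51.6 and 56.6 CPM at 65 nM and 77.2 and 78.8 CPM at 1 µM. No dose overlapped another within a line. At 1 µM the log2 differences from DMSO were 1.02 ± 0.09 in DR cells (adjusted p = 5.47e-09) and 0.96 ± 0.09 in parental cells (adjusted p = 7.87e-10), and the difference of these responses was 0.07 ± 0.12 (adjusted p = 0.656). The calls at the low doses rest on few libraries: at 350 nM (0.36 ± 0.09, adjusted p = 0.0193) the DR call was lost without any 1 of the 4 libraries (adjusted p = 0.0769 to 0.139), and at 65 nM (0.44 ± 0.09, adjusted p = 0.00216) the parental call was lost without parental DMSO replicate 1 (0.0511) or replicate 2 of the 65 nM group (0.0789).

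Opposite directions in the DR and the parental line were seen for ABCC4 and ABCC2. At 1 µM doxorubicin, ABCC4 had 18.3 and 17.98 CPM in DR cells, against 9.60 and 10.7 CPM in DR cells in DMSO (0.78 ± 0.13, adjusted p = 6.51e-05). Its levels in parental cells were 8.10 and 10.8 CPM at 1 µM, against 15.5 and 15.2 CPM in DMSO (-0.66 ± 0.13, adjusted p = 0.000115). The DR libraries with drug lay above those without, and the parental ones below, and the responses differed by 1.44 ± 0.19 (interaction, adjusted p = 9.23e-07). ABCC2 had 54.0 and 54.5 CPM in DR cells at 1 µM, against 42.1 and 40.1 CPM in DMSO (0.39 ± 0.09, adjusted p = 0.00205). In parental cells it had 45.8 and 61.4 CPM at 1 µM, against 93.7 and 90.6 CPM (-0.78 ± 0.09, adjusted p = 7.26e-08), and the responses differed by 1.18 ± 0.13 (adjusted p = 1.08e-07).

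ABCC1 had 549 and 565 CPM in DR cells at 1 µM, against 553 and 543 CPM in DMSO (0.02 ± 0.09). In parental cells it had 41.6 and 40.3 CPM at 1 µM, against 74.0 and 89.9 CPM in DMSO, below both (-0.98 ± 0.09, adjusted p = 1.91e-09). The DR groups overlapped and the parental groups did not, and the responses differed by 1.00 ± 0.13 (adjusted p = 1.12e-06). ABCC3 had 64.4 and 67.2 CPM in DR cells at 1 µM, against 77.0 and 75.5 CPM in DMSO (-0.21 ± 0.10, adjusted p = 0.0943, and 0.00295 after GC and length correction), and it had 34.3 and 30.4 CPM in parental cells at 1 µM, against 58.4 and 76.6 CPM in DMSO (-1.03 ± 0.10, adjusted p = 1.65e-09). Its responses differed by 0.82 ± 0.14 (adjusted p = 2.63e-05). ABCC10 had 10.03 and 11.2 CPM in DR cells at 1 µM, against 13.7 and 12.4 CPM in DMSO (-0.27 ± 0.14, adjusted p = 0.140). It had 7.71 and 6.44 CPM in parental cells at 1 µM, against 12.4 and 13.2 CPM in DMSO (-0.78 ± 0.14, adjusted p = 3.41e-05, and -0.52 after GC and length correction), and its responses differed by 0.51 ± 0.20 (adjusted p = 0.0355). This last call was lost without the filter (0.0517), when only these lines were fitted (0.0551), with median-of-ratios scaling (0.44, adjusted p = 0.0650), after GC and length correction (0.27, adjusted p = 0.134) and without replicate 2 of parental DMSO (0.0845), of parental 1 µM doxorubicin (0.131), of DR DMSO (0.113) or of DR 1 µM doxorubicin (0.117).

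In all, the response to 1 µM doxorubicin differed between DR and parental cells for 5 of 8 genes, each more positive in DR cells. This share is near the 58.3% of all genes called. Of those genes, 4231 had a more positive and 3203 a more negative response in DR cells. The doses of 350 nM in DR cells and 65 nM in parental cells are not matched and were not compared. At 1 µM in both lines, DR cells had higher ABCC1, ABCC3, ABCC4 and ABCC10 and lower ABCC5 and MVP than parental cells, 6 of 8 genes, with 71.4% of all genes called. ABCC1 had 549 and 565 CPM in DR cells, against 41.6 and 40.3 CPM in parental cells, 13.6 times as much (3.73 ± 0.09, adjusted p = 3.02e-19). ABCC4, lower in DR than in parental cells in DMSO, was higher at 1 µM, with 18.3 and 17.98 CPM in DR cells and 8.10 and 10.8 CPM in parental cells (0.88 ± 0.13, adjusted p = 3.11e-06). ABCC2, with 54.0 and 54.5 CPM in DR cells and 45.8 and 61.4 CPM in parental cells, overlapped (0.03 ± 0.09, adjusted p = 0.778), and was called without replicate 2 of parental 1 µM doxorubicin (0.24, adjusted p = 0.0191). ABCG2 (0.26 ± 0.17, adjusted p = 0.176) was likewise called without that library (0.46, adjusted p = 0.0488).

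**Figure D4:**
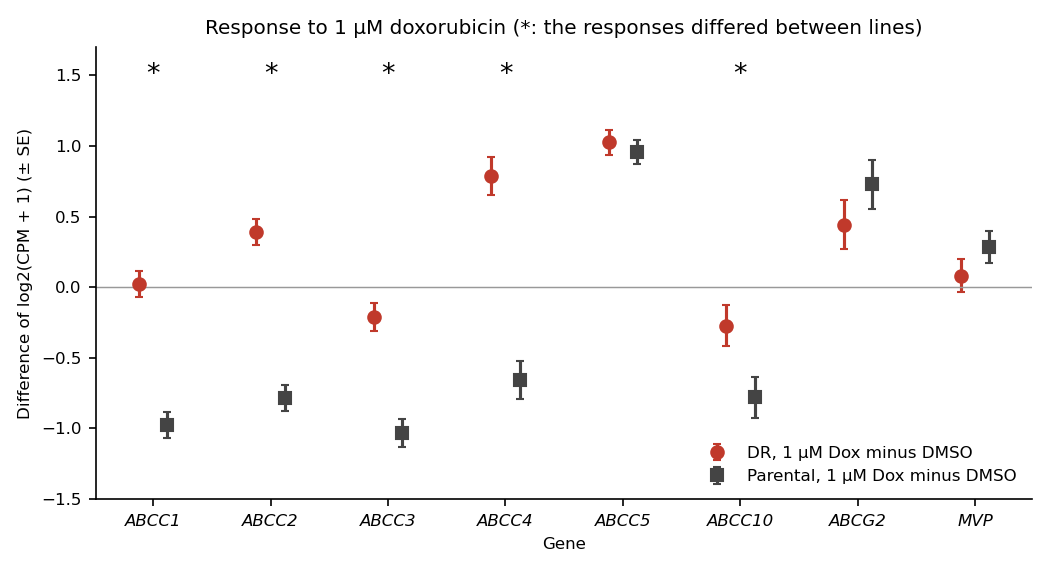
Difference of log2(CPM + 1) between 1 µM doxorubicin and DMSO (vertical axis, with SE) for the 8 tested genes (horizontal axis) in DR cells (red circles) and parental cells (grey squares), where an asterisk marks a called difference between the responses. ABCC4 and ABCC2 stand on opposite sides of 0 in the 2 lines, and ABCC5 lies at 1.02 and 0.96.

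ABCG2 was higher with 1 µM doxorubicin in both lines. It had 2.30 and 2.16 CPM in DR cells at 1 µM, against 1.41 and 1.35 CPM in DMSO (0.44 ± 0.17, adjusted p = 0.0464), a call that was lost without any 1 of the 4 libraries (adjusted p = 0.110 to 0.166) with a pseudocount of 0.25 (0.0680) and without the filter on low values (0.0730). In parental cells it had 1.35 and 2.08 CPM at 1 µM, against 0.486 and 0.774 CPM in DMSO (0.73 ± 0.17, adjusted p = 0.000609), with no overlap and at 2.72 times the DMSO mean in CPM. MVP had 85.0 and 66.5 CPM in parental cells at 1 µM, against 54.6 and 69.4 CPM in DMSO, and these libraries overlap. Its call (0.28 ± 0.12, adjusted p = 0.0297) was lost without replicate 1 of either group (0.11, adjusted p = 0.437 without DMSO replicate 1, and 0.11, adjusted p = 0.449 without replicate 1 of the 1 µM group) and when only the parental libraries were fitted (0.0740). It was 0.45 after GC and length correction, 0.45 without DMSO replicate 2 and 0.46 without replicate 2 of the 1 µM group, and was called in each.

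Beside the pumps, 7 of 14 glutathione genes had a more positive and 2 a more negative response to 1 µM doxorubicin in DR than in parental cells (median 0.37, beside 0.08 over all genes), while 58.3% of all genes were called, so the share is near the background. For GCLC the response was -0.48 ± 0.10 in DR cells and -1.28 ± 0.10 in parental cells. Of the uptake carriers 5 of 7 had a more positive and 1 a more negative response in DR cells (median 0.82), with SLC29A1 at 0.32 in DR cells and -1.40 in parental cells. Of 28 other ABC transporters, 5 rose and 7 fell in DR cells at 1 µM (median -0.04) and 9 rose and 14 fell in parental cells (median -0.22), shares near the 39.1% and 75.8% of all genes called. The peptide transporter TAP1, which loads antigen peptides, had 47.6 and 47.3 CPM in DR cells at 1 µM, against 30.7 and 28.9 CPM in DMSO, and it had 129 and 99.5 CPM in parental cells at 1 µM, against 33.4 and 37.9 CPM (0.65 and 1.64 on the log2 scale). The surfactant lipid transporter ABCA3 fell by 1.03 in DR cells and fell by 2.45 in parental cells.

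ABCB1, which carries both doxorubicin and paclitaxel, had few reads: 127 in all 30 libraries together, with 10 libraries at 0, 20 at 3 reads or fewer and 25 reads in the highest. Its reads stood out at the highest drug doses. DR cells at 1 µM doxorubicin had 9 and 5 reads, against 0 and 1 read in DR cells in DMSO, a ratio of 12.7 (1.93 to 537). PR cells at 10 nM paclitaxel had 9 and 6 reads, against 0 and 0 in PR cells in DMSO, a ratio with a lower 95% counting limit of 3.08, and 4.29 times a floor of 3 reads set over both DMSO libraries together. Parental cells at 1 µM doxorubicin had 20 and 25 reads (0.964 and 0.982 CPM), against 0 and 1 read (0 and 0.0322 CPM) in DMSO, a ratio of 54.3 with a 95% counting interval of 9.26 to 2191. Parental cells at 10 nM paclitaxel had 14 and 13 reads (0.578 and 0.637 CPM), a ratio of 33.7 to DMSO (5.56 to 1380).

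Neither resistant line held more ABCB1 than the parental line at the same dose. At 1 µM doxorubicin DR cells had 14 reads in all, against 45 in parental cells, a ratio of 0.2497 (0.127 to 0.463), and at 10 nM paclitaxel PR cells had 15, against 27 in parental cells, a ratio of 0.439 (0.217 to 0.855). Without the filter on low values, limma called ABCB1 at the highest dose of each line (log2 differences from DMSO of 0.28 in DR cells, 0.34 in PR cells, and 0.96 with doxorubicin and 0.66 with paclitaxel in parental cells, adjusted p = 7.11e-10 to 0.00645). RUNDC3B overlaps ABCB1 on the opposite strand, and strand is not stated for the counting. Whether reads of one were counted for the other was not tested. RUNDC3B had 1.63 to 4.58 CPM in PR libraries. PR cells in DMSO had 3.84 and 2.99 CPM of RUNDC3B and 0 and 0 reads of ABCB1. At 10 nM paclitaxel PR cells had 2.05 and 1.63 CPM of RUNDC3B and 9 and 6 reads of ABCB1. Parental cells had 0.530 and 1.30 CPM of RUNDC3B at 1 µM doxorubicin, against 0.445 and 0.290 CPM in DMSO. DLK2, which overlaps ABCC10 in the same way, had at most 0.218 CPM.

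Counts with paclitaxel are given beside the share of all genes called. In PR cells 0 of 8 were called by limma at 6.5 nM, beside 0.0942% of all genes, with 1 of 8 under an unadjusted p of 0.05 and 0 called by voom (limma on the reads recovered from the CPM), and 1 of 8 (ABCC5) was called at 10 nM beside 13.6%. In parental cells 1 of 8 genes was called at 2.5 nM (MVP) beside 26.8% of all genes, and 3 of 8 at 10 nM (ABCC5 and ABCG2 higher, ABCC3 lower) beside 48.2%. Each of the parental shares is below its background.

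ABCC5 had 39.9 and 44.7 CPM in PR cells at 10 nM, against 30.3 and 32.0 CPM in PR cells in DMSO, without overlap (0.43 ± 0.09, adjusted p = 0.00196). In parental cells at 10 nM it had 49.8 and 44.6 CPM, against 37.7 and 41.8 CPM in DMSO (0.24 ± 0.09, adjusted p = 0.0265), a call lost without parental DMSO replicate 1 (0.208) or replicate 1 of the 10 nM group (0.228), and when only the parental libraries were fitted (0.0960). ABCC3 had 48.7 and 45.8 CPM in parental cells at 10 nM, against 58.4 and 76.6 CPM in DMSO, below both (-0.49 ± 0.10, adjusted p = 0.000262), and this call was kept in every alternative, at -0.30 without parental DMSO replicate 2. ABCG2 had 0.867 and 1.86 CPM in parental cells at 10 nM, against 0.486 and 0.774 CPM in DMSO (0.51 ± 0.17, adjusted p = 0.0190), and was not called without parental DMSO replicate 1 (0.158) or replicate 2 of the 10 nM group (0.403). ABCC10, the taxane pump, had 9.21 and 9.34 CPM in PR cells at 10 nM, against 11.05 and 11.9 CPM in DMSO (-0.28 ± 0.14, adjusted p = 0.204), and 12.01 and 9.85 CPM in parental cells at 10 nM, against 12.4 and 13.2 CPM (-0.22 ± 0.14, adjusted p = 0.216). In both lines the drug libraries lay below DMSO, and both differences were called after GC and length correction (-0.32, adjusted p = 0.0292 in PR cells, and -0.27, adjusted p = 0.0389 in parental cells). That correction also gave calls at 10 nM for ABCC2 (0.26), ABCC3 (-0.27) and ABCG2 (0.44) in PR cells and for ABCC4 (0.30) in parental cells.

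MVP had 80.1 and 84.5 CPM in parental cells at 2.5 nM paclitaxel, against 54.6 and 69.4 CPM in DMSO (0.41 ± 0.12, adjusted p = 0.0128). The libraries did not overlap, but the call was lost without parental DMSO replicate 1 (0.24, adjusted p = 0.293) or replicate 2 of the 2.5 nM group (0.38, adjusted p = 0.127), and when only the parental libraries were fitted (0.0686), and the difference was 0.21 and called after GC and length correction. At 10 nM MVP had 77.0 and 69.7 CPM (0.25 ± 0.12, adjusted p = 0.0802), and was called with median-of-ratios scaling (0.28, adjusted p = 0.0491), after GC and length correction (0.19, adjusted p = 0.00556) or without parental DMSO replicate 2 (0.42, adjusted p = 0.00980). ABCC1 at 10 nM (-0.19, adjusted p = 0.106) was called without parental DMSO replicate 1 (-0.33, adjusted p = 0.0158) or replicate 1 of the 10 nM group (-0.32, adjusted p = 0.0234) and after GC and length correction (-0.23, adjusted p = 0.000239), and ABCC3 at 2.5 nM (0.09) without parental DMSO replicate 2 (0.28, adjusted p = 0.0276). MVP at 65 nM doxorubicin (0.22, adjusted p = 0.230) was called without that same library (0.39, adjusted p = 0.0339).

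The response to 10 nM paclitaxel was not called as different between PR and parental cells for any of the 8 genes (limma), where 10.8% of all genes were called, 2 of 8 had an unadjusted p under 0.05 (ABCC2 at 0.29 and MVP at -0.35), and voom called 0. Without parental DMSO replicate 1 ABCC3 was called (0.47, adjusted p = 0.0211), and without replicate 2 MVP was (-0.52, adjusted p = 0.0442). After GC and length correction ABCC1 (0.26, adjusted p = 0.00740), ABCC3 (0.27, adjusted p = 0.0128) and MVP (-0.33, adjusted p = 0.00270) were called. With 10 nM paclitaxel in both lines, 4 of 8 genes differed between PR and parental cells, ABCC3 and ABCG2 higher and ABCC4 and MVP lower, beside 49.7% of all genes. ABCC4 had 4.24 and 3.46 CPM in PR cells, against 16.2 and 19.3 CPM in parental cells (-1.95 ± 0.13, adjusted p = 4.15e-11). ABCC3 had 69.3 and 77.1 CPM in PR cells, against 48.7 and 45.8 CPM (0.62 ± 0.10, adjusted p = 1.63e-05), and MVP had 40.7 and 49.7 CPM, against 77.0 and 69.7 CPM (-0.69 ± 0.12, adjusted p = 2.90e-05). None of these 3 overlapped. ABCG2 had 1.99 and 2.89 CPM in PR cells, against 0.867 and 1.86 CPM (0.56 ± 0.17, adjusted p = 0.01001), and lost its call without replicate 1 of the parental (0.295) or replicate 2 of the PR group (0.151). The vault partner TEP1 was lower in PR cells here (-0.38 ± 0.10, adjusted p = 0.00318).

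MVP was lower with ruxolitinib in both lines, alone and with paclitaxel. PR cells given 15 µM ruxolitinib had 33.1 and 35.5 CPM, against 48.4 and 48.3 CPM in DMSO (-0.48 ± 0.12, adjusted p = 0.0103). With 6.5 nM paclitaxel in both groups, PR cells given ruxolitinib had 34.0 and 33.1 CPM of MVP, against 47.2 and 50.8 CPM without it (-0.53 ± 0.12, adjusted p = 0.00893).

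Parental cells given 15 µM ruxolitinib had 29.5 and 28.9 CPM of MVP, against 54.6 and 69.4 CPM in DMSO (-1.05 ± 0.12, adjusted p = 6.53e-07), which was the 58th most negative difference of 12743 genes. With 2.5 nM paclitaxel in both groups, parental cells given ruxolitinib had 34.6 and 37.8 CPM, against 80.1 and 84.5 CPM without it (-1.16 ± 0.12, adjusted p = 2.94e-07). In none of the 4 comparisons did the libraries overlap. Both parental calls held under every alternative. The PR call for ruxolitinib alone was lost without PR DMSO replicate 1 (adjusted p = 0.0875), PR DMSO replicate 2 (0.0794) or PR ruxolitinib replicate 1 (0.121), and the one with paclitaxel without PR paclitaxel replicate 2 (0.137) or replicate 1 (0.0714) or 2 (0.0939) of the combination. The response to ruxolitinib alone was 0.57 ± 0.16 less negative in PR than in parental cells, which was not called (interaction, adjusted p = 0.179) but was called without parental DMSO replicate 1 (0.74, adjusted p = 0.0299) and after GC and length correction (0.47, adjusted p = 0.000487). For the 8 genes the count was 0 by limma, 1 at an unadjusted p under 0.05 and 0 by voom, beside 0.408% of all genes.

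ABCC4 and ABCC2 moved in opposite directions with ruxolitinib. ABCC4 had 4.58 and 5.21 CPM in PR cells with 15 µM ruxolitinib, against 3.54 and 2.83 CPM in DMSO (0.50 ± 0.13, adjusted p = 0.0239). In parental cells it had 23.9 and 24.2 CPM, against 15.5 and 15.2 CPM (0.61 ± 0.13, adjusted p = 0.00285). The groups did not overlap in either line. ABCC2 had 58.4 and 63.5 CPM in PR cells with ruxolitinib, against 80.3 and 74.8 CPM (-0.34 ± 0.09, adjusted p = 0.0269), and 68.2 and 69.8 CPM in parental cells, against 93.7 and 90.6 CPM (-0.41 ± 0.09, adjusted p = 0.00428), again without overlap. Both PR calls depend on single libraries: the ABCC2 call was lost without any 1 of the 4 (adjusted p = 0.0652 to 0.252), and the ABCC4 call without PR DMSO replicate 2 (0.305), PR ruxolitinib replicate 1 (0.0647) or replicate 2 (0.228), and by voom (0.0710). The parental ABCC2 call was lost when only the parental libraries were fitted (0.0553).

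In counts, ruxolitinib alone gave 3 of 8 genes called in PR cells beside 6.92% of all genes, and the same number, again MVP, ABCC2 and ABCC4, in parental cells beside 13.2%. Added to paclitaxel it gave 1 of 8 (MVP) in PR cells beside 3.28% and 6 of 8 in parental cells beside 27.9%. Of the 6, MVP had the only adjusted p under 0.01, and the other 5 lay between 0.0198 and 0.0479. ABCC4 was higher with ruxolitinib (0.43 ± 0.13, at 26.0 and 22.4 CPM with it, against 17.8 and 17.4 CPM without). ABCG2 was higher too (0.48 ± 0.17, at 1.05 and 1.14 CPM, against 0.453 and 0.561 CPM), while ABCC1 (-0.25 ± 0.09), ABCC2 (-0.28 ± 0.09) and ABCC3 (-0.28 ± 0.10) were lower. Of the 6, MVP alone kept its call without replicate 1 or replicate 2 of the paclitaxel group or replicate 1 of the combination, and 4 kept it without replicate 2 of the combination. The calls for ABCC2 and ABCG2 were lost without any 1 of the 4 libraries (adjusted p = 0.0693 to 0.168), and those for ABCC1, ABCC3 and ABCC4 without either paclitaxel replicate or replicate 1 of the combination (0.0539 to 0.416). After GC and length correction ABCC1 (-0.09, adjusted p = 0.174), ABCC3 (-0.11, adjusted p = 0.139) and ABCG2 (0.30, adjusted p = 0.168) were not called. ABCC1, ABCC3 and ABCG2 also lost their calls without the filter (0.0547 to 0.0742), ABCC1 and ABCG2 by voom (0.0523 and 0.0581) and ABCC1 with a replicate block (0.0531). All 5 were lost when only the parental libraries were fitted (0.0649 to 0.156). ABCC10 was called without replicate 1 of the paclitaxel group (-0.55, adjusted p = 0.0127), and ABCC1 was called with ruxolitinib alone without parental DMSO replicate 1 (-0.40, adjusted p = 0.0129) and after GC and length correction (-0.25, adjusted p = 0.000251).

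**Figure D5:**
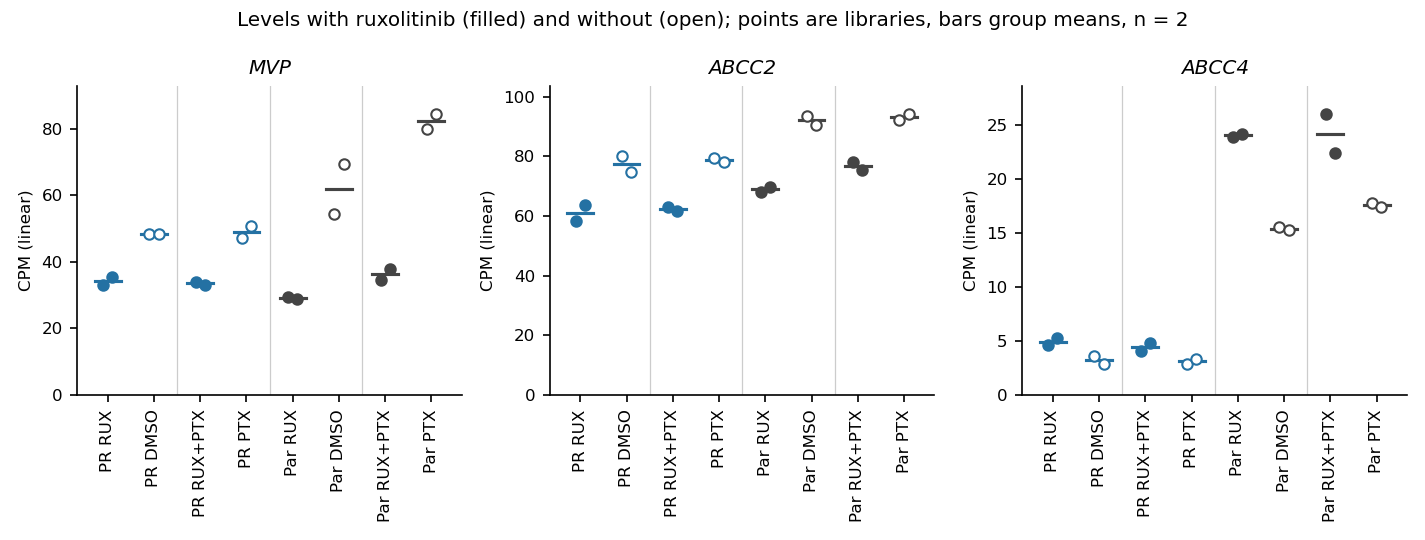
CPM (vertical axes, linear, from 0) of MVP, ABCC2 and ABCC4 in PR cells (blue) and parental cells (grey), with ruxolitinib (filled) or without it (open), where points are libraries and bars means of 2. All 8 libraries with ruxolitinib hold 28.9 to 37.8 CPM of MVP, below the 8 without it at 47.2 to 84.5 CPM.

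Of 28 other ABC transporters, 2 rose and 0 fell in PR cells with ruxolitinib alone (median 0.06) and 2 rose and 2 fell in parental cells (median -0.01). These counts lie near the share of all genes called with ruxolitinib alone, 6.92% in PR cells and 13.2% in parental cells. The cholesterol exporter ABCG1 had 18.6 and 16.7 CPM in PR cells with ruxolitinib, against 9.44 and 9.55 CPM in DMSO (0.83 ± 0.13, adjusted p = 0.000112), and 14.2 and 15.2 CPM in parental cells, against 7.04 and 8.03 CPM (0.88 ± 0.13, adjusted p = 3.16e-05). Of the regulators and scaffolds, 0 rose and 1 fell in PR cells and 0 rose and 5 fell in parental cells. The log2 difference of MSN was -0.38 in PR cells and -0.59 in parental cells. Of 7 uptake carriers, 1 rose and 0 fell in PR cells (median -0.04), beside 6.92% of all genes. In parental cells 1 rose and 3 fell (median -0.36), beside 13.2%. The copper carrier SLC31A1, which also takes up platinum drugs, was higher with ruxolitinib in PR cells (0.30 ± 0.08) and parental cells (0.51 ± 0.08). Neither TEP1 nor PARP4 was called with ruxolitinib in either line. Of the glutathione genes 1 rose and 0 fell in each line.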

How the data were processed

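Polyadenylated RNA of 30 libraries was sequenced, and the authors deposited log2 values of CPM scaled by trimmed mean of M-values (TMM), as the table's title says. The log2 scale and its pseudocount of 1 were read from the values. The submitters' processing notes name STAR 2.5.1b, edgeR and GRCh37 (hg19). Which tool counted reads, with which annotation and whether by strand, was not given in the sources used here. Every value came out as a whole number of reads within a tolerance of 0.01, which gave the depths and read counts in the text.

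The 9 genes, the other gene lists and the tests were chosen with earlier results of these data known. Tests on the log2 values used limma 3.58.1 (R 4.3.3): a means model of 15 groups on all 30 libraries, no covariate, trend and robust variance, two-sided, with Benjamini-Hochberg adjustment over the 12743 of 20114 genes with at least 1 CPM in at least 2 libraries, called under 0.05. Each gene has 1 spread shared by all groups (15 residual degrees of freedom). Errors are SE of the log2 difference. ABCB1 ratios carry exact conditional binomial 95% intervals. The fit was tested on simulated data first.

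All 9 genes are named. From the other lists, up to 3 called genes per comparison with the widest log2 difference and a mean of at least 5 CPM in a group could be named, with the 3 tested neighbours on each side of ABCC1 and MVP and the 3 genes most like each member. Transcript lengths and GC content came from GENCODE 29. Alternatives tried were a pseudocount of 0.25, no filter, median-of-ratios scaling, a replicate block, only the lines compared, voom, a GC and length correction (95.37% of tested genes had both) and leaving out each library.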

Additional observations from a re-analysis of the deposited data

Results flagged for a closer look

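The response to 1 µM doxorubicin differed between DR and parental cells for 5 of 8 genes, by the interaction term in limma, while 58.3% of all genes were called. The share of the 8 is near that background. On the scale of log2(CPM + 1), the DR response exceeded the parental one by 1.44 for ABCC4 and by 1.176 for ABCC2. The excess was 0.9989 for ABCC1, 0.8201 for ABCC3 and 0.5087 for ABCC10. The ABCC10 call was lost in 8 of 15 alternatives, among them GC and length correction (0.27, adjusted p = 0.134). ABCC4 and ABCC2 were higher with drug in DR cells and lower with drug in parental cells, in both libraries of each group. ABCC1 overlapped DMSO in DR cells, and ABCC3 and ABCC10 were not called there.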

How the results depend on the processing

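Of 65 called differences among the 160 tested for the 8 genes, 40 kept their call under every alternative tried and 25 lost it under at least 1, of which 24 lost it when 1 library was left out. One direction turned: ABCC1 in parental cells at 2.5 nM paclitaxel was at -0.17 (adjusted p = 0.0144) after GC and length correction, against 0.00 and no call without it. For the other counts of called genes, GC and length correction gave, for parental cells, 3 with 2.5 nM paclitaxel, 7 with 10 nM, 3 with 65 nM doxorubicin and 3 with ruxolitinib added to paclitaxel, then 3 in DR cells at 350 nM, 5 in PR cells at 10 nM paclitaxel, 3 in PR cells with ruxolitinib added to paclitaxel, and 3 and 1 for the paclitaxel and ruxolitinib response between lines. With only the lines compared the counts were 0 at 2.5 nM paclitaxel and 1 with ruxolitinib added to paclitaxel in parental cells, 2 in DR cells at 350 nM, and 3 at 10 nM paclitaxel and 2 with ruxolitinib added to paclitaxel in PR cells. Without the filter the count with ruxolitinib added to paclitaxel in parental cells was 3. The cause of these shifts was not tested.

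With 1 library left out, the counts ran over 3 to 5 for PR against parental cells in DMSO, 0 to 2 for parental cells at 2.5 nM paclitaxel and at 65 nM doxorubicin, 1 to 4 for ruxolitinib added to paclitaxel in parental cells, 0 for DR cells at 350 nM, 0 to 1 for ruxolitinib alone and for ruxolitinib added to paclitaxel in PR cells, and 0 to 1 for the paclitaxel and ruxolitinib responses between lines. A lone remaining library was assumed to vary like the other groups.

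Same-numbered libraries did not deviate together (correlations of -0.689 to 0.650 over 105 pairs of groups, 30 above 0.1). A replicate block left 6 genes called for PR against parental cells in DMSO (ABCC2 adjusted p = 0.0566) and 5 for ruxolitinib added to paclitaxel in parental cells (ABCC1 adjusted p = 0.0531), and the same count elsewhere.

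Over all genes, with only the lines compared, calls numbered 1000 in place of 3414 for parental cells at 2.5 nM paclitaxel, 461 in place of 1421 at 65 nM doxorubicin, 775 in place of 1685 with ruxolitinib and 1428 in place of 3561 with both. In PR cells they numbered 114 in place of 12 at 6.5 nM, 3745 in place of 1735 at 10 nM, 2102 in place of 882 with ruxolitinib and 1047 in place of 418 with both. After GC and length correction they numbered 5258 in place of 3505 for DR against parental cells in DMSO, 2896 at 65 nM doxorubicin and 3525 with ruxolitinib in parental cells, 1823 in place of 486 in DR cells at 350 nM, 139, 3557, 2050 and 1358 in the same 4 PR comparisons, and 3329 in place of 1370 and 268 in place of 52 for the paclitaxel and ruxolitinib responses between lines. With 1 library left out they ran over 2280 to 3332 for DR against parental cells in DMSO, 476 to 5172 for parental cells at 2.5 nM paclitaxel, 240 to 2527 at 65 nM doxorubicin, 751 to 1727 with ruxolitinib and 736 to 3618 with both, 130 to 264 for DR cells at 350 nM, 1 to 4, 696 to 1135, 358 to 407 and 141 to 172 in the PR comparisons, and 639 to 1573 and 25 to 92 for the responses between lines. At 6.5 nM in PR cells, 4 were called without the filter and 5 by voom.

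ABCG2 and ABCB1 rest on few reads, so small differences in them were not detectable at this depth.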

Other observations

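With 1 µM doxorubicin, 2 of 7 uptake carriers rose and 1 fell in DR cells, and 1 rose and 4 fell in parental cells (median -0.68, beside -0.07 over all genes), while 39.1% of all genes were called in DR cells and 75.8% in parental cells. SLCO2A1 had 3.28 and 3.61 CPM in parental cells with drug, against 7.65 and 8.19 CPM in DMSO. Among 14 regulators and scaffolds, 5 rose and 5 fell in DR cells (median 0.06), and 3 rose and 9 fell in parental cells (median -0.57). The difference of the responses was called as positive for 10 and as negative for 2, while 58.3% of all genes were called. The vault partner PARP4 rose with 1 µM doxorubicin in both lines. It had 110 and 111 CPM with drug, against 82.4 and 83.6 CPM in DMSO, in DR cells (0.41 ± 0.08), and 92.7 and 109 CPM with drug, against 64.1 and 62.0 CPM in DMSO, in parental cells (0.67 ± 0.08). MVP was at 0.08 (not called) in DR cells and at 0.28 in parental cells, a call that was lost without replicate 1 of either parental group. Its responses were not called as different (-0.20, adjusted p = 0.296), but were after GC and length correction (-0.35, adjusted p = 0.000335).

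With paclitaxel at 10 nM, 4 of 28 other ABC transporters rose and 2 fell in PR cells, while 13.6% of all genes were called. ABCG1 had 4.87 and 5.81 CPM in PR cells with drug, against 9.44 and 9.55 CPM in DMSO, a direction opposite to that seen with ruxolitinib. TEP1 had 69.7 and 63.6 CPM in parental cells at 10 nM, against 42.3 and 49.6 CPM in DMSO (0.53 ± 0.10, adjusted p = 0.000167), and its response differed from that of PR cells (-0.55 ± 0.14, adjusted p = 0.0145).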
